A study of Mus musculus with 12 samples.

Results

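Adora2a, Rgs9, Gpr6, Rasd2, Lrrc10b, Actn2, Syndig1l, Rxrg and Gng7 are 9 genes that mark medium spiny neurons, the GABAergic projection neurons of the striatum, and they are followed here on arrays of RNA from the basolateral amygdala (BLA). The members were taken by symbol, 9 of 20752 genes with a probe set of their own, and they have 14 probe sets. The genes were selected on RMA values (log2 expression values that the authors normalized) of these same arrays, known from earlier work on them, so their values are a description and no test was made on them. A gene with several probe sets is shown at the one whose mean over the arrays is highest.

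Both groups of mice expressed PABPC1-FLAG, a tagged protein that attaches to the poly(A) tails of messenger RNA, from the fos promoter in the BLA, which neuronal activity switches on. One group received footshocks (shock) and the other was exposed to a female mouse (female), and the RNA bound to the tagged protein was pulled down. Each group has 3 arrays, and the design note gives pools of 2 mice per sample but 3 mice per group, so arrays of a group may share mice and the spread between arrays may be partly technical. The labels do not state the strain, the age or how the construct was delivered.

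Medium spiny neurons fall into a direct pathway, marked by the dopamine receptor D1, and an indirect pathway, marked by the dopamine receptor D2 and the adenosine receptor A2a. In both, receptors act through the G protein Gαolf and adenylyl cyclase on cAMP and on DARPP-32, encoded by Ppp1r1b. Several of these genes are also expressed in the central amygdala and in the strip of striatum beside the BLA. In RNA pulled down with the tagged protein from pooled mice, fewer cells of a type and less RNA per cell cannot be told apart. Nor can these be told apart from fewer tagged cells of that type or less tagged protein in them.

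The defining striatal genes were measured unevenly here. Ppp1r1b, Penk, Tac1 and the D1 receptor gene (Drd1a in the files) lay above the filter on dim probe sets, a mean RMA value of 6.31 (log2), whereas Drd2 and Chrm4 lay below it. All 9 members had a probe set above the filter, and 13 of their 14 probe sets passed it.

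The promoters of 3 members are shown because these genes differed most in how they behaved. Gpr6 was the member with the higher level on every shock array, Lrrc10b had the widest separation of the groups in the other direction, and Rgs9 was among the members that stood out on a single female array. The sequences run 5′ to 3′ on the gene's strand from 250 bases before to 50 bases after the gene's start (RefSeq, GRCm38.p6). Capitals mark the motif named with each.
Gpr6 (chr10:41072241-41072540, minus strand; cAMP response element, TGACGTCA): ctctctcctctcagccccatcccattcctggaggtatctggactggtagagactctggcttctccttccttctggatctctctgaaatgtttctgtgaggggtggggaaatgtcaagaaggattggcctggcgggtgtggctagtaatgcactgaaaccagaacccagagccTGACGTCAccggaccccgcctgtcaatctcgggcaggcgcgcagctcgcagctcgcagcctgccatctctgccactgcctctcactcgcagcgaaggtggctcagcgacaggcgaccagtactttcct
Lrrc10b (chr19:10457398-10457697, minus strand; GC box, GGGCGG): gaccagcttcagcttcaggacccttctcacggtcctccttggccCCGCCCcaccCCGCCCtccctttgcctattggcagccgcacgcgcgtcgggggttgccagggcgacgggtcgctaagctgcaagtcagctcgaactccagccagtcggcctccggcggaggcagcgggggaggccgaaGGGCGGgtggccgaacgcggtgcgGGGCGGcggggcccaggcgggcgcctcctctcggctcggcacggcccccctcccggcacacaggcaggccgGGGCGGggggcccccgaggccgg
Rgs9 (chr11:109298132-109298431, minus strand; TATA box, TATAAA): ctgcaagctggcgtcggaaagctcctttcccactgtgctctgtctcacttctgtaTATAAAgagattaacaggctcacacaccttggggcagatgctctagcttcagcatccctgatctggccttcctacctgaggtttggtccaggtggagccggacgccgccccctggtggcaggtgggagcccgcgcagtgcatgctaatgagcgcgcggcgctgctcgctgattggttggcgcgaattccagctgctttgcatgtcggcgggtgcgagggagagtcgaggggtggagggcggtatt

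The motifs were searched on both strands in 9 promoters of 7 members, and the table used had none for Adora2a and Syndig1l. The cAMP response element was found in Gpr6 alone among the members, starting 78 bases before the gene's start, and in 1.79% of all 32851 promoters. The GC box was in Actn2, Gng7, Lrrc10b and Rgs9, with 5 copies in Lrrc10b, and in 35.7% of all promoters. The TATA box was in Rgs9 (13.6% of all promoters), starting 195 bases before the gene's start. AGGTCA, the half-site bound by nuclear receptors such as the one Rxrg encodes, was in Actn2 and Rxrg (16.3% of all promoters). TGANTCA, the site of Fos and Jun dimers, was in no member promoter (7.81% of all promoters). No motif overlapped another in the sequences printed. These matches describe the letters of the windows only.

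Among the receptors, the adenosine and the orphan receptor went in opposite directions. Adora2a encodes the A2a adenosine receptor of indirect-pathway neurons. Its RMA value (log2) was 8.00, 8.37 and 8.09 on shock replicates 1 to 3 and 8.44, 9.40 and 8.59 on female replicates 1 to 3. All female arrays lay above all shock arrays, by little except on female replicate 2. The mean was 8.15 ± 0.19 in shock and 8.81 ± 0.52 in female (SD, n = 3), a difference of -0.66 (shock minus female, standard error 0.22), or 1.58-fold. Without female replicate 2 the difference was -0.36. The other Adora2a probe set was dim, below the filter, with a difference of -0.27.

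Gpr6 encodes an orphan receptor that raises cAMP without a known ligand and is found in indirect-pathway neurons. The RMA values were 7.27, 7.18 and 7.39 in shock and 6.66, 6.84 and 7.03 in female. Every shock array was above every female array, and female replicate 2 lay between the other female arrays. The means were 7.28 ± 0.11 and 6.84 ± 0.19 (SD, n = 3), a difference of 0.44 (standard error 0.12), or 1.35-fold, and 0.44 also without female replicate 2. On the MAS5 values, the authors' other processing of the same arrays, the intensities were 241, 167 and 247 in shock and 165, 244 and 214 in female. There the groups overlapped, with a difference of 0.06 on the log2(value + 16) scale, so the separation of Gpr6 was seen on RMA values only.

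Among the genes of G protein signalling, Rgs9 resembled Adora2a and Gng7 stayed level. Rgs9 encodes a regulator that speeds the return of G proteins to rest, with a long form in the striatum and a short one in the retina. On the shock arrays it was at 8.64, 8.53 and 8.43 and on the female arrays at 8.61, 9.51 and 9.05 (RMA, log2). Female replicates 2 and 3 lay above all shock arrays, while female replicate 1 lay within the shock range. The means were 8.53 ± 0.10 and 9.06 ± 0.45 (SD, n = 3), a difference of -0.53 (standard error 0.19), and -0.30 without female replicate 2.

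Rgs9 has 2 other probe sets, one of them almost as bright, with a mean over the 6 arrays of 8.76 against 8.79 for the representative. The choice between these 2 matters, since the less bright one had a difference of -0.06, and 0.12 without female replicate 2. The dimmest, with a mean of 6.73, had a difference of -0.51. Female replicate 2 was the highest of the female arrays at all 3, by 0.68, 0.55 and 0.66 over the mean of the other female arrays. The files do not say which Rgs9 form each probe set measures.

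Rasd2 encodes Rhes, a small GTPase of the striatum that dampens dopamine receptor signalling. RMA values were 8.58, 9.04 and 8.56 in shock and 8.41, 9.05 and 8.63 in female. The groups covered the same range, with replicate 2 the highest array of each. The difference was 0.03 (standard error 0.18). The second Rasd2 probe set, which the files place on the same stretch of chromosome 8, gave another picture. Its values were 6.99, 7.27 and 7.36 in shock and 7.57, 8.13 and 7.61 in female, with no overlap and a difference of -0.56 (standard error 0.16). The name of the first ends in _s_at, which marks probes that can match several transcripts.

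Gng7 encodes the G protein γ subunit that works with Gαolf downstream of the D1 and A2a receptors. The RMA value stood at 9.43, 9.77 and 9.68 in shock and 9.54, 9.54 and 9.75 in female. The groups overlapped, the difference was 0.02 (standard error 0.12), and no female array stood out. Of its partners in the striatal lists, Gnal, which encodes Gαolf, had a difference of 0.18 (standard error 0.10, limma adjusted p = 0.208). The adenylyl cyclase gene Adcy5 had one of 0.02 at its brightest probe set (standard error 0.10, limma adjusted p = 0.912). At another Adcy5 probe set the difference was -1.25, higher in female without overlap (standard error 0.19, limma adjusted p = 0.0064). That probe set is annotated on the strand opposite to the brightest one, so it may not measure the Adcy5 transcript.

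**Figure D1:**
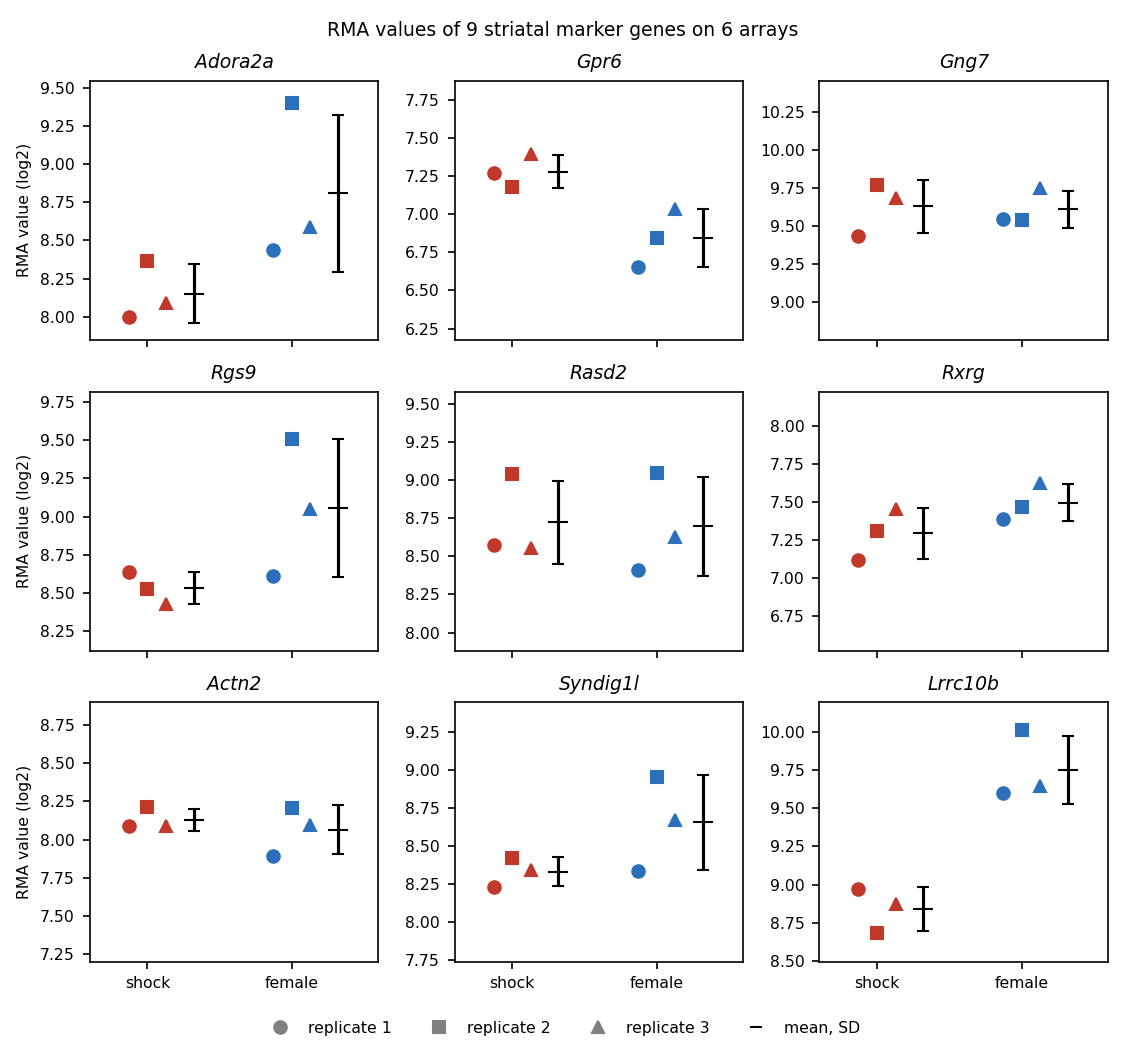
RMA values (log2, vertical axis) of the 9 marker genes at their representative probe sets, for 3 shock arrays (red) and 3 female arrays (blue), with replicate numbers as symbols and the group mean and SD in black; each panel spans the same number of log2 units around its own centre. Female replicate 2 reaches 9.40 in Adora2a, 9.51 in Rgs9 and 8.95 in Syndig1l, above the other female arrays, whereas Gpr6 is above 7.1 on the shock arrays only.

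Lrrc10b was separated between the groups most widely. RMA values reached 8.97, 8.68 and 8.87 in shock and 9.60, 10.01 and 9.65 in female. The lowest female array lay above the highest shock array by more than either group's range. The means were 8.84 ± 0.15 and 9.75 ± 0.22 (SD, n = 3), a difference of -0.91 (standard error 0.13), or 1.88-fold, and -0.78 without female replicate 2. On MAS5 values the intensities ran from 357 to 632 in shock and from 1023 to 1148 in female.

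The synaptic and cytoskeletal members differed from each other. Syndig1l encodes a membrane protein related to the AMPA receptor partner SynDIG1. Array by array the RMA value was 8.23, 8.42 and 8.34 in shock and 8.33, 8.95 and 8.67 in female. Female replicates 2 and 3 lay above all shock arrays and female replicate 1 among them, with a difference of -0.32 (standard error 0.15). The second probe set, nearer the 3′ end of the gene as the files place it, was separated further. Its values were 7.24, 7.42 and 7.35 in shock and 7.58, 8.40 and 8.10 in female, a difference of -0.69 (standard error 0.18) with no overlap.

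Actn2 encodes α-actinin-2, which links actin filaments and binds NMDA receptors in spines. It had RMA values of 8.09, 8.21 and 8.09 in shock and 7.89, 8.21 and 8.09 in female. Female replicate 1 alone lay outside the shock range, and the difference was 0.06 (standard error 0.11). Rxrg encodes the nuclear receptor RXRγ, which pairs with retinoic acid receptors. Its RMA values were 7.12, 7.31 and 7.45 in shock and 7.39, 7.47 and 7.63 in female. The groups overlapped slightly, with a difference of -0.20 (standard error 0.12). On MAS5 values, Rxrg did not overlap, with intensities of 122, 209 and 160 in shock and 267, 305 and 292 in female, and a difference of -0.79.

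Across the 9 members, the groups did not overlap for 3, Adora2a and Lrrc10b higher in female and Gpr6 higher in shock. Groups did not overlap for 48.7% of the 13203 genes tested, 20.0% with female higher and 28.7% with shock higher, so this share of members is below that of genes at large. The median difference was -0.20 over the members and 0.06 over all tested genes. On MAS5 values the groups did not overlap for 4 of the 9, against 31.1% of all tested genes. In the authors' deposited table of the RMA values, folds were taken between bi-weight averages, not between the plain means used above. A positive fold there is higher in female. The fold was 1.71 for Lrrc10b (FDR 0.134), -1.35 for Gpr6 (FDR 0.190) and 1.33 for Adora2a (FDR 0.303).

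**Figure D2:**
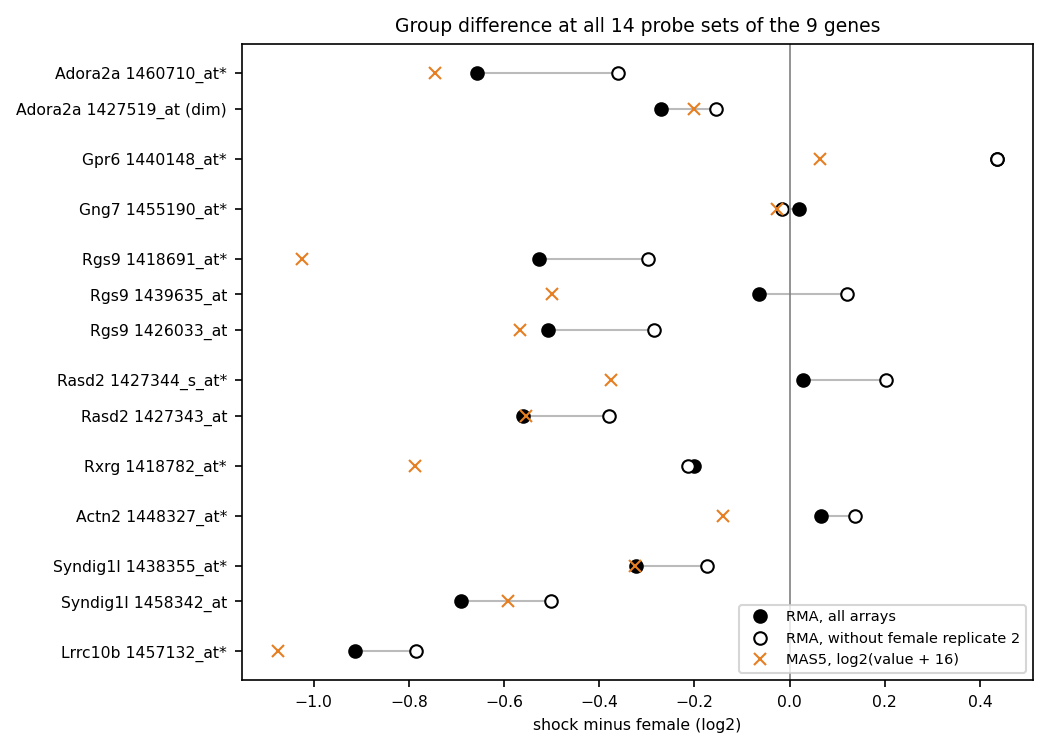
Shock minus female (log2, horizontal axis) at the 14 probe sets of the 9 genes, with all arrays (filled circles), without female replicate 2 (open circles) and on MAS5 values (crosses); an asterisk marks the representative. Most points lie left of 0, towards female, and the 2 probe sets of Rasd2 lie apart at 0.03 and -0.56.

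What most members shared was the order of the female arrays. Female replicate 2 was the highest of the 3 female arrays for 6 of the 9 members (Adora2a, Rgs9, Rasd2, Lrrc10b, Actn2 and Syndig1l), and for 30.2% of all tested genes. In the same 6, female replicate 1 was the lowest, an order found in 18.0% of all tested genes. Female replicate 1 was the lowest female array for 8 of the 9, and for 27.3% of all tested genes. At least 0.5 (log2) separated female replicate 2 from the mean of the other female arrays in Adora2a (0.89), Rgs9 (0.68) and Rasd2 (0.53), a step reached by 2.63% of all tested genes. On MAS5 values female replicate 2 was the highest female array for 8 of the 9, against 38.9% of genes.

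The shock arrays lay closer together. The range over the shock arrays was between 0.12 and 0.48 for the members and that over the female arrays between 0.21 and 0.96, wider than in shock for 7 of the 9. A wider female range was not particular to the members, since over all tested genes the median range was 0.18 in shock and 0.27 in female. Leaving out female replicate 2 brought the difference nearer to 0 in Adora2a, Rgs9, Lrrc10b and Syndig1l (-0.17). It moved away from 0 in Rasd2 (0.20) and Actn2 (0.14), and stayed close in Gpr6 (0.44), Rxrg (-0.21) and Gng7 (-0.02). The members were put together with this spread known, so its presence in them is not independent support for it.

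Several measures moved with female replicate 2. This array departed from the others over genes at large. Its array weight, an estimate of how well an array fits its group, was 0.20 against 0.89 to 2.64 for the others. The lower quartile of its MAS5 values was 55.7 against 38.6 to 45.3. The part of this in the members' values was not tested. Among 16 oligodendrocyte genes female replicate 2 was the highest female array for all 16, with a median of 0.54 above the mean of the other female arrays. The mean level of that list (log2) ran from 9.32 to 9.58 in shock and from 9.60 to 10.12 in female. Among its brightest probe sets was that of Mbp, which encodes myelin basic protein (difference -0.26, limma adjusted p = 0.130). Among 18 excitatory neuron genes female replicate 2 was the highest female array for 4, with a median of -0.42 from the others. The brightest of the 18 were Camk2a and Lypd1. Lypd1 was among the 4, at 11.27, 11.65 and 11.43 on female replicates 1 to 3, against the list median. The mean level of the 18 genes ran from 9.48 to 9.60 in shock and from 9.12 to 9.60 in female. The part of such markers in the values of the 9 genes was not tested.

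The neighbouring amygdala lists did not follow female replicate 2 upwards. It was the highest female array for 2 of 10 central amygdala genes (median -0.31 from the others, mean level 8.68 to 8.91 in shock and 8.42 to 8.67 in female), whose brightest were Sst, for somatostatin, and Dlk1. Intercalated cells are the small GABAergic clusters around the BLA, and it was the highest for 2 of their 6 tested genes. The brightest of the 6 were the transcription factor gene Tshz1 and the opioid receptor gene Oprm1 (list median -0.14, mean level 8.01 to 8.12 in shock and 7.79 to 7.96 in female). For interneurons it was the highest for 4 of 15 genes (list median -0.13, mean level 9.39 to 9.59 in shock and 9.27 to 9.47 in female). It was the lowest female array for the 2 brightest, the GABA synthesis genes Gad1 and Gad2. GABAergic neurons in general express these 2 genes, medium spiny neurons included, so they do not set interneurons apart. For astrocytes female replicate 2 was the highest for 5 of 12, with Slc1a2 among them and Gja1 not (list median 0.0033, mean level 9.84 to 9.92 in shock and 9.92 to 10.20 in female). Chat, Slc18a3 and Slc5a7, the defining genes of the cholinergic interneurons of the striatum, all lay below the filter, with mean RMA values of 4.40, 4.41 and 5.35. Of that list Lhx8, a transcription factor gene, was the only gene above it, with a difference of 0.29 (standard error 0.13, limma adjusted p = 0.132).

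Signal along the transcript also differed between the arrays. The 5′ to 3′ signal, taken as the 5′ probe set minus the 3′ probe set of a gene and then as the median of 2647 genes, was -0.98, -0.83 and -0.89 in shock and -0.71, -0.47 and -0.74 in female (log2). Female replicate 2 was the highest of all arrays by this measure. With this signal as a covariate the difference was 0.17 for Adora2a, -0.04 for Rgs9, 0.08 for Syndig1l, 0.39 for Gpr6 and -0.71 for Lrrc10b. It was 0.59 for Rasd2, 0.27 for Actn2, -0.17 for Rxrg and 0.04 for Gng7. All members except Gpr6 shifted towards shock, Rxrg and Gng7 only slightly. The covariate is itself higher in all female arrays, so what it removes and a group difference cannot be told apart. Over the same 2647 genes, shock minus female was lower at the 5′ probe set than at the 3′ one for 77.6%. The median differences were -0.12 at the 5′ and 0.17 at the 3′ probe sets.

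**Figure D3:**
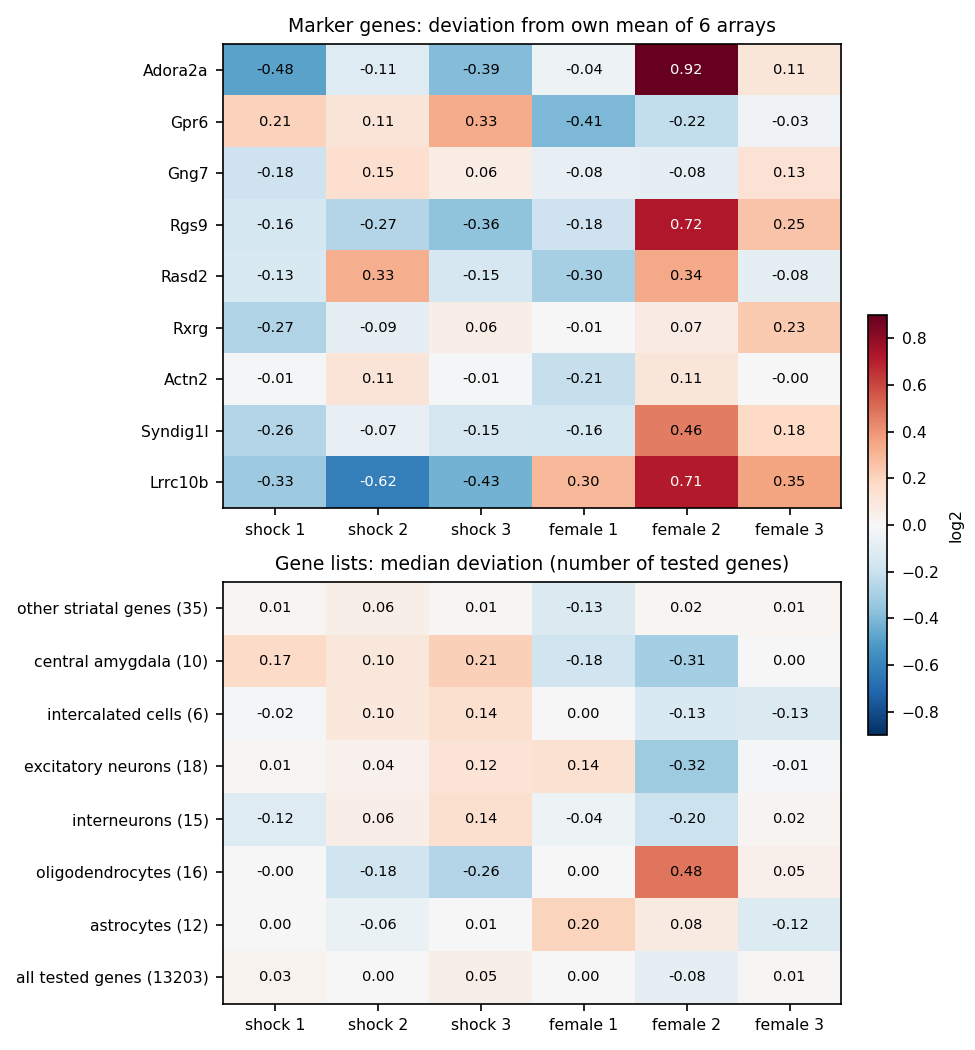
Deviation of each array (columns) from the mean of the 6 arrays, in log2, for the 9 marker genes (upper panel) and as the median over the tested genes of each list (lower panel). Female replicate 2 stands out in Adora2a, Rgs9 and Lrrc10b and in the oligodendrocyte list, and lies below 0 in the excitatory neuron list. In Gpr6 all female arrays lie below 0.

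Other striatal genes, from a list of 41 that holds none of the 9, went both ways. At the representative probe sets of 35 tested genes, 6 rose in shock, 2 rose in female and 27 did not pass (limma, adjusted p under 0.05 over all 27022 probe sets, of which 20.8% passed). Over all tested genes 20.0% passed, 10.6% higher in shock and 9.40% higher in female, so 8 of 35 is close to the share of genes at large, and the median difference was 0.02 against 0.06 over all. The count was 0 without shock replicate 1 (12 at an unadjusted p under 0.05 in limma), and 1 without shock replicate 2 or shock replicate 3. It ran from 6 to 11 without any 1 female array, and was 0 on MAS5 values (9 at an unadjusted p under 0.05).

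Among the genes higher in shock were Spock3, which encodes a matrix proteoglycan, at 0.77 (standard error 0.15, limma adjusted p = 0.0124), and Pde10a, the striatal phosphodiesterase gene, at 0.68 (standard error 0.13, limma adjusted p = 0.0127). The cannabinoid receptor gene Cnr1 was at 0.73, the transcription factor gene Foxp2 at 0.43, Strip2 at 0.40 and the regulator gene Rgs2 at 0.34. Female replicate 2 was the lowest female array for 5 of these 6, opposite to its place in most members. Several other probe sets of these genes differed in sign. The other 4 of Pde10a had differences of -0.27, -0.48, -0.32 and -0.48, and the last of these passed (limma adjusted p = 0.0448). The other Cnr1 probe set was at -0.44 (limma adjusted p = 0.0217).

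The genes higher in female were Ppp1r1b and Hpca, which encodes the calcium sensor hippocalcin. Ppp1r1b had RMA values of 6.88, 7.02 and 6.67 in shock and 7.51, 9.02 and 8.00 in female, the same order of female arrays as Adora2a, with a difference of -1.32 (standard error 0.30, limma adjusted p = 0.0198). Hpca was at -0.50 (standard error 0.15, limma adjusted p = 0.0406), and here female replicate 2 was 0.42 below the mean of the other female arrays.

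The choice of probe set decided several of these calls. Of 41 tested probe sets of the listed genes that were not representatives, 11 passed, 8 higher in female and 3 higher in shock, against 11.5% and 9.31% of all probe sets. They belong in part to 6 of the genes whose representative did not pass, 5 of them higher in female and Meis2 higher in shock. Of the 5, Adcy5 passed at the probe set annotated on the opposite strand. The others were the transcription factor genes Foxp1 (-0.56, limma adjusted p = 0.00867), Bcl11b (-0.58, 0.0185) and Six3 (-0.78, 0.0287), and the potassium channel partner gene Kcnip2 (-0.74, 0.0246). These probe sets were singled out after their values were seen. The part of a probe set's position along the transcript in these calls was not tested.

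At representative probe sets, none of the 5 tested direct-pathway genes passed in limma (0 at an unadjusted p under 0.05), nor did the 2 tested indirect-pathway genes, Penk and Six3 (0 at an unadjusted p under 0.05). Six3 passed at its other probe set, as given above. Penk, which encodes the enkephalin precursor, had RMA values of 10.31, 10.35 and 10.61 in shock and 10.09, 11.23 and 10.76 in female, a difference of -0.27 (standard error 0.24, limma adjusted p = 0.413). Drd1a was at -0.21 (limma adjusted p = 0.374), the substance P precursor gene Tac1 at 0.07 (0.724) and the dynorphin precursor gene Pdyn at 0.14 (0.609). Drd2 was not tested because it lay below the filter. Its values were 5.29, 5.68 and 5.23 in shock and 6.02, 6.92 and 6.60 in female, without overlap. Chrm4, the muscarinic receptor gene of the direct pathway, was below the filter too, at 5.52, 5.43 and 5.33 in shock and 5.81, 5.84 and 5.53 in female. Of the remaining genes, the sodium channel gene Scn4b was at -0.46 (0.181) and the phosphatase gene Ptpn5 at -0.46 (0.0837).

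**Figure D4:**
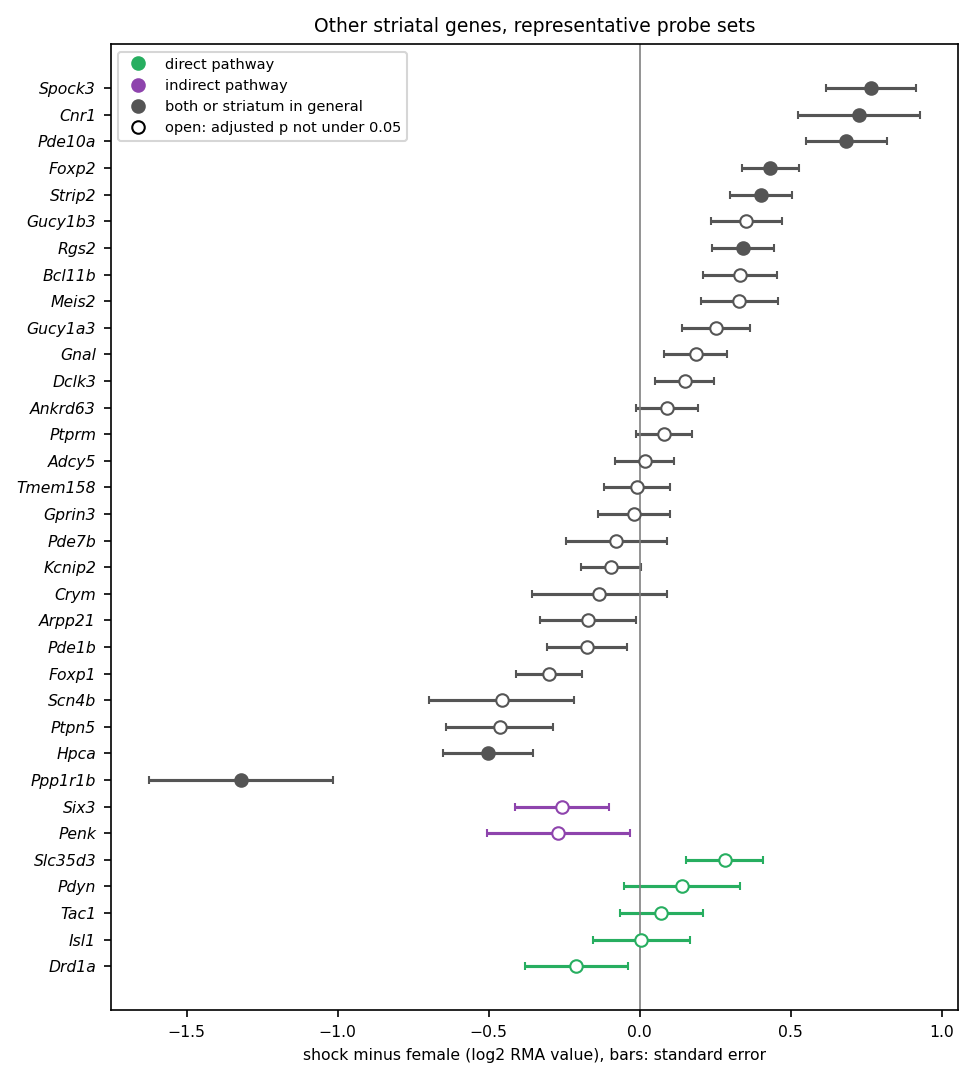
Shock minus female (log2 RMA value, horizontal axis) with its standard error for the other striatal genes tested, 1 of the 35 not shown; filled points had an adjusted p under 0.05. The filled points are 6 to the right of 0, from 0.34 to 0.77, and 2 to the left, Hpca at -0.50 and Ppp1r1b at -1.32.

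The members were alike to different degrees. As a measure of likeness over the 6 arrays, Pearson's r between a member and the mean of the other 8 was 0.999 for Syndig1l, 0.907 for Rgs9 and 0.903 for Adora2a. It lay between 0.461 and 0.564 for Rasd2, Lrrc10b, Actn2 and Rxrg, was 0.049 for Gng7, and was -0.527 for Gpr6. Among 8454 other named genes whose range was at least that of Actn2 (0.32), the profile most like the mean of the 9 was that of Vamp5 (0.994), followed by Gabarap (0.988), Six5 (0.986), Trpm4 (0.983), Dok5 (0.983) and Ctdnep1 (0.982). Then came Ecel1, Acly, Tmsb10, Rnasek, Edn1 and Klhl36, from 0.982 to 0.976. Vamp5 had RMA values of 6.80, 6.98 and 6.83 in shock and 6.87, 7.38 and 7.12 in female, again highest on female replicate 2. These values describe 6 arrays, of which that array carries most of the variation, and they were chosen as the highest of many.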

How the data were processed

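RNA recovered with PABPC1-FLAG was measured on Affymetrix mouse expression arrays, on which a probe set is a group of probes for 1 transcript. For the same 6 arrays the authors deposited RMA values, in log2, and MAS5 intensity values on a linear scale, per the submitters' processing notes and the titles, so the 12 samples are 6 arrays. No source used here gives software versions or the MAS5 scaling. Comparison tables were deposited too, with a signed fold (a score, negative where shock is higher) and p-values, per the file headers. Gene symbols come from these tables, whose genome build is not named.

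From 45101 rows, 64 controls were left out. Of the remaining 45037, 38130 had 1 symbol, 1253 several and 5654 none. The fit of shock minus female (R 4.3.3, limma 3.58.1, lmFit and eBayes) was made on the 27022 probe sets with a mean RMA value above the 40th percentile, 2-sided, with Benjamini-Hochberg adjustment over all of them. Standard errors of the members come from this fit. An _x_at probe set represented a gene only where there was no other. MAS5 values entered as log2(value + 16), which understates differences of dim probe sets. The 5′ to 3′ signal used genes whose probe sets end 500 to 20000 bases apart. The fit was tested on simulated data.

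The genes named are the 9 members, striatal list genes that passed, 12 striatal genes fixed by name, the 2 brightest of each other list and the 12 most alike in profile; Prkcd, Crh, Calcrl and the probe sets that differ in sign were singled out after their values were seen, and 2 genes that this rule names are not reported here. Members and lists were chosen with earlier results of these data known. Of 41 listed striatal genes, 39 matched a probe set. The replicate numbers are shared between the groups. The deviations of same-numbered arrays correlated at 0.01, 0.21 and 0.15, and those of other pairs at -0.21 to 0.12. These values do not settle whether arrays were paired. The labels name no pairs, so the numbers were not taken to pair arrays. Alternatives were other filters, MAS5 values, another normalization, array weights, a trended robust prior, the replicate block, other choices of probe set, the 5′ to 3′ covariate and leaving out each array. The number of arrays limits the precision.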

Additional observations from a re-analysis of the deposited data

How the results depend on the processing

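The limma count of 5614 probe sets became 543 and 277 on MAS5 values with pseudocounts of 16 and 1, 8752 with array weights and 1 with the 5′ to 3′ covariate, and it ran from 321 to 6756 when 1 array was left out. The 8 other striatal genes called became 0 on both MAS5 scales (9 and 8 at an unadjusted p under 0.05), 16 with array weights, 13 with the most variable probe set of a gene and 0 with the covariate (10 at an unadjusted p under 0.05), and ran from 0 to 11 when 1 array was left out. When the probe sets of each gene were averaged, 6 were called, of which 4 were higher in female. Median centring of the arrays moved the split of all calls from 2516 in shock against 3098 in female to 2985 against 2821. With the replicate block the counts were 7120 probe sets and 10 other striatal genes. The block is given here only, since the numbers were not taken to pair arrays. The causes were not tested.

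Over 160 alternative values of the 9 members, 142 stayed within 1 SD between replicates and 18 moved by more. Many of the 142 could not move. Other filters, the trended robust prior and the replicate block leave a difference as it is. So do other choices of probe set for a gene with a single probe set. The 142 are therefore no measure of stability. Gpr6, Lrrc10b, Rgs9 and Rxrg kept their sign under each alternative run, from 0.06 to 0.53 in Gpr6 and from -1.10 to -0.71 in Lrrc10b. Where groups do not overlap, leaving out an array cannot turn the sign. The sign of Rasd2 changed under 7 alternatives and that of Gng7 under 8. Gng7 stayed near 0 without a direction, and the direction of Rasd2 depended on the probe set, the processing and the arrays used.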

Other observations

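Among the central amygdala genes, Prkcd, which encodes protein kinase C delta, had the order of female arrays seen in Adora2a. Its RMA value was 7.08, 6.85 and 7.13 in shock and 7.33, 9.07 and 7.77 in female, with a difference of -1.03 (standard error 0.35, limma adjusted p = 0.0598). Female replicate 2 lay 1.52 above the mean of the other female arrays. In the same list Crh, the corticotropin-releasing hormone gene, and Calcrl, a peptide receptor gene, were lower there, by -0.73 and -0.94. These 3 genes were singled out after their values were seen.

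The processing changed some members more than others. For Rgs9 the difference was -0.53 on RMA and -1.02 on MAS5 values, and for Rxrg -0.20 and -0.79. For Adora2a (-0.66 and -0.75), Syndig1l (-0.32 and -0.33) and Lrrc10b (-0.91 and -1.08) both lay close together. Of the 14 probe sets, 10 were below 0 on RMA values and 13 on MAS5 values, and that of Gpr6 was above 0 on both.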
